A study of Mus musculus with 24 samples.

Results

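Microfold (M) cells are the antigen-sampling cells of the follicle-associated epithelium, the single layer of epithelium over the lymphoid follicles of a Peyer's patch. In all, 10 genes of these cells, listed by symbol, were followed in RNA-Seq data of the mouse ileum: Gp2, Tnfaip2, Spib, Sox8, Ccl20, Ccl9, Tnfrsf11a, Tnfrsf11b, Marcksl1 and Anxa5, that is 10 of the 55536 genes in the count table. They were listed by name, with no threshold on their values, and each was read beside Ms4a1, which encodes CD20 and marks the B cells of the follicles, as a measure of how much Peyer's patch a tissue piece held. Of the 10 genes, 7 passed the filter on low counts, along with 14076 genes in all. Gp2, Sox8 and Ccl20 did not pass it.

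Each library was made from the ileum, the last stretch of the small intestine, of a different C57BL/6N mouse, and the 24 mice fell into 4 groups of 6 with 3 males and 3 females each. All mice entered at 4 to 5 weeks of age, lived 3 to a cage and ate their diet for 20 weeks before the treatment period of 10 weeks. CD mice received a control diet with 10 kcal% fat, HFD mice a high-fat diet with 60 kcal% fat, and CDmetf and HFDmetf mice the same diets followed by metformin in the drinking water at 50 mg/kg body mass per day. Metformin is a glucose-lowering drug, and the high-fat diet is a model of obesity and insulin resistance that carries no genetic change. Libraries are named by group, sex and replicate number, so that CDmetf F2 is the library labelled female 2 of the CDmetf group. How each tissue piece was placed relative to Peyer's patches is not given in the sources used here.

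The reads assigned to genes ranged from 1829690 to 40606442 per library (median 3467308). A floor of 3 reads corresponded to 0.0705 to 1.71 CPM (the read count scaled to the size of the library, here with TMM factors), so that single reads decide the lowest genes in the shallow libraries. In CD M3, 85.4% of the counts fell on 10 genes, against 9.22% to 36.6% in the other 23 libraries. The sex-linked transcripts went against the label in 2 libraries, HFD M2 and HFD F2, which are of the same diet group. The summed level of 8 epithelial genes led by Epcam was 6097 to 12730 CPM and that of 7 enterocyte genes led by Fabp2 4148 to 27940 CPM. No gene of either list was at 0 in every library. Markers of epithelium and enterocytes were thus present, but these sums do not tell the ileum from other stretches of the small intestine.

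M cells arise when stromal cells below the epithelium present RANKL to its receptor RANK on epithelial progenitors. RANK signals through NF-kappa B and switches on the transcription factors Spi-B and Sox8, which are needed for mature M cells with the surface receptor GP2. Osteoprotegerin is a soluble decoy that binds RANKL, and the follicle-associated epithelium also secretes CCL20 and CCL9, which attract lymphocytes and dendritic cells. Several of these genes are used by other cells too: Spib by B cells and plasmacytoid dendritic cells, Gp2 by pancreatic acinar cells, and Tnfaip2, Ccl9 and Anxa5 by macrophages or connective tissue.

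The 3 genes whose level ran most closely with that of Ms4a1 over the libraries were Gp2, Spib and Ccl20. Their promoter windows are shown because of this shared pattern, and they were picked for printing after it was seen. Each is the 250 bases before the RefSeq gene start on GRCm38.p6, printed 5′ to 3′ on the gene's own strand. Capitals mark GAGGAA, the core bound by Spi-B and related ETS factors, and GGGANNNNCC, a loose form of the NF-kappa B motif, each searched on both strands.
Gp2 (chr7:119459273-119459522, minus strand): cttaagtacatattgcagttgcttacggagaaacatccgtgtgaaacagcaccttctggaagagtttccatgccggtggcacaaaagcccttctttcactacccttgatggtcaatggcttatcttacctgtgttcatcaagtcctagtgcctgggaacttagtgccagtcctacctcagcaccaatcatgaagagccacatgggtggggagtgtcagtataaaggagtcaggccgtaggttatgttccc
Spib (chr7:44532072-44532321, minus strand): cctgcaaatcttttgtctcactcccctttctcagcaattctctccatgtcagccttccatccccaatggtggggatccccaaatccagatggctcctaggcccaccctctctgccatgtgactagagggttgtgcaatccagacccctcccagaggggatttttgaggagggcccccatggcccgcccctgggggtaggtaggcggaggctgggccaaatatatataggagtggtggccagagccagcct
Ccl20 (chr1:83116516-83116765, plus strand): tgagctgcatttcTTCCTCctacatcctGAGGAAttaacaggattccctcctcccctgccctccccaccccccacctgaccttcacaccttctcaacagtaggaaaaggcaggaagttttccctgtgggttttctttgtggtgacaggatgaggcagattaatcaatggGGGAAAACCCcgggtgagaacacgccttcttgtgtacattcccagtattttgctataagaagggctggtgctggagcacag

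The Ccl20 window held GAGGAA at 2 places, 1 on each strand, from 222 and from 237 bases before the start, and the NF-kappa B form from 81 bases before it. The Gp2 and Spib windows held neither motif. A RefSeq window was found for 9 of the 10 genes and not for Tnfrsf11b, and GAGGAA was in 2 of the 9 (22.2%), Ccl20 and Marcksl1, against 23.3% of the 32851 windows in the table. The NF-kappa B form was in 1 of the 9 (11.1%), against 17.6% of all windows. A match is a description of the letters only, and with 9 windows each single window counts for 11.1%.

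Levels per exonic length put Marcksl1 first, with a median of 27.3 RPKM (reads scaled for library size and exonic length) over the 24 libraries, followed by Anxa5 at 22.6 and Tnfrsf11a at 17.7. The ranges of these 3 overlapped widely, from 7.84 to 48.5 RPKM for Marcksl1, from 11.6 to 55.0 for Anxa5 and from 11.9 to 24.2 for Tnfrsf11a. Ccl9 (median 6.12 RPKM), Spib (3.74), Tnfrsf11b (2.14) and Tnfaip2 (1.45) formed a middle range, and the neighbours in this order overlapped as well. Gp2 (0.518 RPKM), Ccl20 (0.210) and Sox8 (0.143) came last. These last genes had no read in 3, 8 and 3 libraries, respectively. In bulk tissue, fewer cells of a type and less RNA per cell cannot be told apart.

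**Figure D1:**
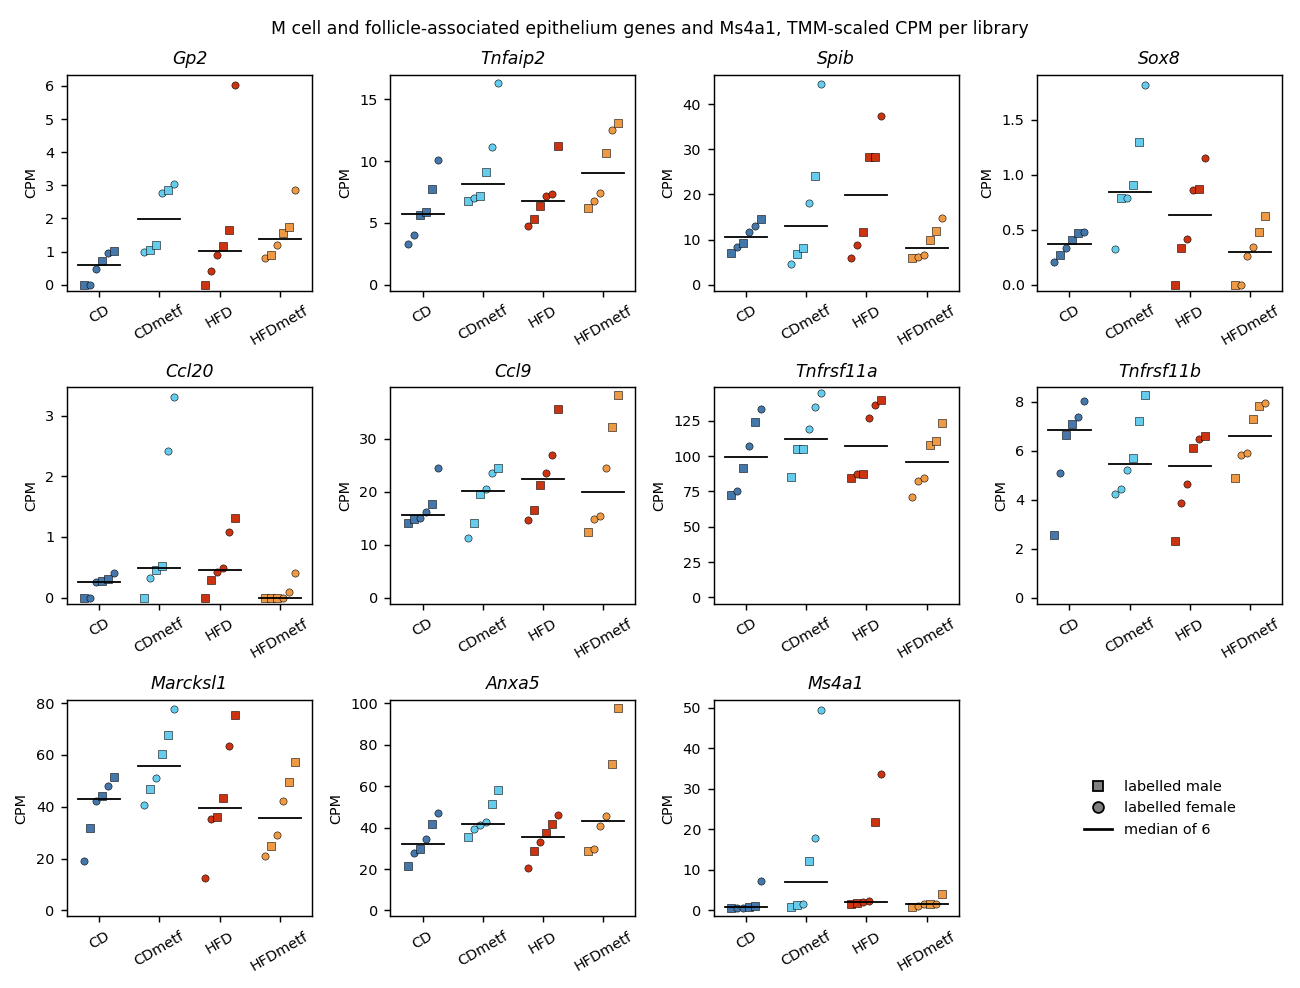
TMM-scaled CPM of the 10 genes and Ms4a1 in each of the 24 libraries, by group, with squares for libraries labelled male, circles for those labelled female and a line at the median of 6. Ms4a1, Spib and Ccl20 show a few high libraries in CDmetf and HFD, with Ms4a1 at up to 49.4 and 33.6 CPM, and no such library in HFDmetf, where Ms4a1 reached 3.98 CPM.

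Ms4a1 (chr19:11249675-11266241, minus strand, GRCm38) set the measure of follicle content. It was 0.513 to 7.22 CPM in CD (median 0.740), 0.902 to 49.4 CPM in CDmetf (median 6.92), 1.63 to 33.6 CPM in HFD (median 2.19) and 0.796 to 3.98 CPM in HFDmetf (median 1.56). The 6 highest libraries were CDmetf F2 (49.4 CPM), HFD F1 (33.6), HFD M2 (21.7), CDmetf F3 (17.9), CDmetf M1 (12.2) and CD F1 (7.22), and all others were at or below 3.98 CPM. High libraries stood beside low ones of the same group, and all 4 groups overlapped. The levels of Ms4a1 rest on 2 to 90 reads per library in CD and 3 to 752 in CDmetf. In HFD they rest on 4 to 1430 reads and in HFDmetf on 3 to 35. The low end of this measure, and each relation to it below, thus depends on few reads in the shallow libraries. The summed level of 11 follicular B cell genes led by Ms4a1 ranged from 7.50 to 540 CPM, with its highest values in CDmetf F2 and HFD F1 and none of the 11 at 0 in every library. It was 8.71 to 36.4 CPM in HFDmetf, against 7.50 to 90.8 in CD, 12.6 to 540 in CDmetf and 15.5 to 401 in HFD.

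Gp2 (ENSMUSG00000030954, chr7:119442537-119459285, minus strand) encodes the M cell receptor that takes up type 1 piliated bacteria. Its level was 0 to 1.03 CPM in CD (median 0.591), 0.980 to 3.03 CPM in CDmetf (median 1.98), 0 to 6.04 CPM in HFD (median 1.03) and 0.813 to 2.84 CPM in HFDmetf (median 1.39). The highest library was HFD F1 with 257 reads, and CD M2, CD F2 and HFD M3 had none. Gp2 was higher in CDmetf than in CD in 6 of 6 pairs of the same sex and number, yet the groups overlapped at their edges. Pancreatic acinar cells also make Gp2. The summed level of 10 acinar genes led by Cpa1, with Amy2a5 at 0 in all libraries, was 67.0 to 138 CPM in CD, 41.8 to 84.0 in CDmetf, 45.8 to 225 in HFD and 45.4 to 124 in HFDmetf, and Cpa1 had r = 0.15 with Gp2.

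Tnfaip2 (ENSMUSG00000021281, chr12:111442469-111455018, plus strand) encodes M-Sec, a protein of membrane protrusions found in M cells and in myeloid cells. It was 3.31 to 10.1 CPM in CD (median 5.76), 6.79 to 16.4 CPM in CDmetf (median 8.15), 4.71 to 11.2 CPM in HFD (median 6.78) and 6.20 to 13.1 CPM in HFDmetf (median 9.03). All groups overlapped. It overlaps Gm40578 on the opposite strand, and the strand setting of the counting is not given in the sources used here.

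Spib (ENSMUSG00000008193, chr7:44525993-44532071, minus strand), the ETS transcription factor, was 6.98 to 14.7 CPM in CD (median 10.5), 4.57 to 44.5 CPM in CDmetf (median 13.1), 6.00 to 37.4 CPM in HFD (median 19.9) and 5.96 to 14.8 CPM in HFDmetf (median 8.20). The highest libraries were CDmetf F2 (44.5 CPM) and HFD F1 (37.4), which were also the highest for Ms4a1. HFD M2 (28.3 CPM) and HFD M3 (28.2) followed. HFD M3 had 1.63 CPM of Ms4a1, from 4 reads, and no read of Gp2, Sox8 or Ccl20. In this shallow library the floor of 3 reads was 1.23 CPM. That is above the medians of Gp2 (1.035 CPM), Sox8 (0.445) and Ccl20 (0.299) over all libraries, so that the absence of reads says little.

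Sox8 (ENSMUSG00000024176, chr17:25565892-25570686, minus strand), the factor of late M cell maturation, was the least abundant gene per length. It was 0.210 to 0.482 CPM in CD (median 0.373), 0.327 to 1.82 CPM in CDmetf (median 0.843), 0 to 1.15 CPM in HFD (median 0.637) and 0 to 0.628 CPM in HFDmetf (median 0.298). These levels rest on 0 to 49 reads per library, and 10 of 24 libraries were under the floor of 3 reads. Sox8 overlaps 2810468N07Rik on the opposite strand.

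Ccl20 (ENSMUSG00000026166, chr1:83116766-83119167, plus strand) encodes the ligand of CCR6. It was 0 to 0.401 CPM in CD (median 0.264), 0 to 3.30 CPM in CDmetf (median 0.488), 0 to 1.32 CPM in HFD (median 0.460) and 0 to 0.407 CPM in HFDmetf, where 4 of 6 libraries had no read. The highest libraries were CDmetf F3 (3.30 CPM), CDmetf F2 (2.42), HFD M2 (1.32) and HFD F1 (1.08), 4 of the 6 highest for Ms4a1. In total, 14 of 24 libraries were under the floor, so that fold changes of Ccl20 depend on the prior count of the fit.

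Ccl9 (ENSMUSG00000019122, chr11:83572919-83578636, minus strand), a ligand of CCR1, was 14.1 to 24.5 CPM in CD (median 15.6), 11.2 to 24.4 CPM in CDmetf (median 20.0), 14.6 to 35.6 CPM in HFD (median 22.4) and 12.4 to 38.3 CPM in HFDmetf (median 19.9). The lowest library of all was CDmetf F2 and the lowest of HFD was HFD F1, the highest libraries for Ms4a1.

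Tnfrsf11a (ENSMUSG00000026321, chr1:105780718-105847981, plus strand), which encodes RANK, varied least. It was 72.8 to 133 CPM in CD (median 99.3), 85.2 to 145 CPM in CDmetf (median 112), 84.6 to 140 CPM in HFD (median 107) and 71.0 to 123.1 CPM in HFDmetf (median 96.1), a 2.04-fold range over all libraries. Tnfrsf11b (ENSMUSG00000063727, chr15:54250619-54278484, minus strand), which encodes osteoprotegerin, was 2.57 to 8.04 CPM in CD, 4.24 to 8.29 CPM in CDmetf, 2.32 to 6.58 CPM in HFD and 4.87 to 7.96 CPM in HFDmetf, with medians of 6.87, 5.47, 5.39 and 6.62. The 4 groups overlapped for both genes.

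Marcksl1 (ENSMUSG00000047945, chr4:129513581-129515985, plus strand) encodes an actin-binding protein of the MARCKS family. It was 18.9 to 51.3 CPM in CD (median 43.1), 40.8 to 77.9 CPM in CDmetf (median 55.7), 12.6 to 75.3 CPM in HFD (median 39.7) and 21.1 to 57.1 CPM in HFDmetf (median 35.6). Anxa5 (ENSMUSG00000027712, chr3:36448923-36475894, minus strand) encodes a phospholipid-binding annexin and was 21.7 to 47.3 CPM in CD (median 32.2), 35.6 to 58.3 CPM in CDmetf, 20.6 to 46.2 CPM in HFD (median 35.3) and 28.8 to 97.7 CPM in HFDmetf (median 43.2). The top 2 libraries for Anxa5, HFDmetf M1 (97.7 CPM) and HFDmetf M2 (70.6), were also high for Ccl9, at 32.1 and 38.3 CPM.

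The first question was whether diet or metformin changed these genes. No gene of the 10 was called in any of the 4 contrasts or in the interaction at an FDR of 0.05 in edgeR's quasi-likelihood test, and the share of all genes called was 0% in each. The contrasts share groups, so that a high or low group enters more than 1 of them. The values below are log2 fold changes with their standard errors, and those of Gp2, Sox8 and Ccl20 come from the same fit with these 3 genes added, a step taken after they were seen to miss the filter. All p-values rest on the spread between these mice. Pairs are of the same sex label and replicate number, and the labels do not say that such mice shared a block. In the contrasts with HFD, the pairs of HFD M2 and HFD F2 follow a sex label that their transcripts go against. Counts of pairs are thus descriptions only.

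In HFD vs. CD, the values of all 3 rare genes were positive, with Gp2 at 1.52 (SE 0.601, unadjusted p = 0.0193, adjusted p = 0.9997), Ccl20 at 1.28 (SE 0.770) and Sox8 at 0.87 (SE 0.485). Spib was at 0.93 (SE 0.482, adjusted p = 0.9997), higher in 5 of 6 pairs. Of the 7 genes tested, 0 had an unadjusted p under 0.05 in either direction, against 2.59% of all genes higher and 2.04% lower. Ms4a1 was at 2.48 (SE 0.915, unadjusted p = 0.0130), higher in 6 of 6 pairs. Of the 11 follicular B cell genes, 8 were higher at an unadjusted p under 0.05 (median 2.09). Of 6 tested acinar genes, 4 were lower at that threshold (median -2.85). Their summed level differed less, with medians of 95.8 CPM in CD and 80.9 CPM in HFD over the list of 10. The part of acinar cells in the value of Gp2 was not tested.

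In HFDmetf vs. CDmetf the signs were the opposite for the same genes. Ccl20 was at -2.91 (SE 0.763, unadjusted p = 9.9e-04, adjusted p = 0.575), Sox8 at -1.57 (SE 0.482, unadjusted p = 0.00376) and lower in 6 of 6 pairs, Spib at -0.96 (SE 0.5001) and Gp2 at -0.73 (SE 0.568). Marcksl1 was at -0.67 (SE 0.288, unadjusted p = 0.0309) and was the only one of the 7 tested genes under 0.05 before adjustment, against 4.04% of all genes lower and 3.83% higher. Ms4a1 was at -2.84 (SE 0.984), and all 11 follicular B cell genes were lower at an unadjusted p under 0.05, while 3 of 6 acinar genes (median 2.26) and 2 of 8 macrophage genes (median 0.16) were higher.

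In HFDmetf vs. HFD, the effect of metformin on the high-fat diet, Ccl20 was at -1.97 (SE 0.823, unadjusted p = 0.0260) and not higher in any of 6 pairs. Spib was at -1.22 (SE 0.499, unadjusted p = 0.0236, adjusted p = 0.640) and higher in 1 of 6 pairs, the 1 tested gene of 7 with an unadjusted p under 0.05, against 2.82% of all genes lower and 3.79% higher. Gp2 differed least of the rare genes, at -0.32 (SE 0.587). Anxa5 was at 0.55 (SE 0.265, unadjusted p = 0.0517). Ms4a1 was at -2.53 (SE 1.01), and 10 of 11 follicular B cell genes were lower at an unadjusted p under 0.05. Of the acinar genes, 4 of 6 were higher (median 3.00), and of the macrophage genes, 2 of 8 were higher and 1 lower (median 0.34).

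In CDmetf vs. CD, the effect of metformin on the control diet, Gp2 was at 1.93 (SE 0.591, unadjusted p = 0.00365, adjusted p = 0.939), Ccl20 at 2.22 (SE 0.735) and Sox8 at 1.51 (SE 0.472). Tnfaip2 was at 0.71 (SE 0.236, unadjusted p = 0.00669) and Marcksl1 at 0.63 (SE 0.285, unadjusted p = 0.0392), 2 of the 7 tested genes, against 2.74% of all genes higher and 2.41% lower. The median of the 7 was 0.40, beside -0.002 over all genes. Spib was at 0.67 (SE 0.483) and higher in 3 of 6 pairs. Ms4a1 was at 2.79 (SE 0.918), with all 11 follicular B cell genes higher at an unadjusted p under 0.05. At the same threshold 3 of 8 macrophage genes were higher (median 0.37) and 2 of 6 acinar genes lower (median -2.01). The part of macrophages in the value of Tnfaip2, which they also express, was not tested.

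The interaction, the diet difference with metformin minus that without it, was -4.19 (SE 1.07, adjusted p = 0.524) for Ccl20, -2.43 (SE 0.676) for Sox8, -2.25 (SE 0.822) for Gp2 and -1.89 (SE 0.693, unadjusted p = 0.0126, adjusted p = 0.799) for Spib. Spib was the 1 tested gene of 7 with an unadjusted p under 0.05, against 2.99% of all genes negative and 3.04% positive. The interaction of Ms4a1 was -5.33 (SE 1.34, adjusted p = 0.547). That of the acinar genes was positive, with 5 of 6 at an unadjusted p under 0.05 (median 5.11), and their part in the values of Gp2 was not tested. Tnfrsf11a, Tnfrsf11b, Ccl9 and Anxa5 had interactions between -0.38 and 0.43, with no unadjusted p under 0.05.

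**Figure D2:**
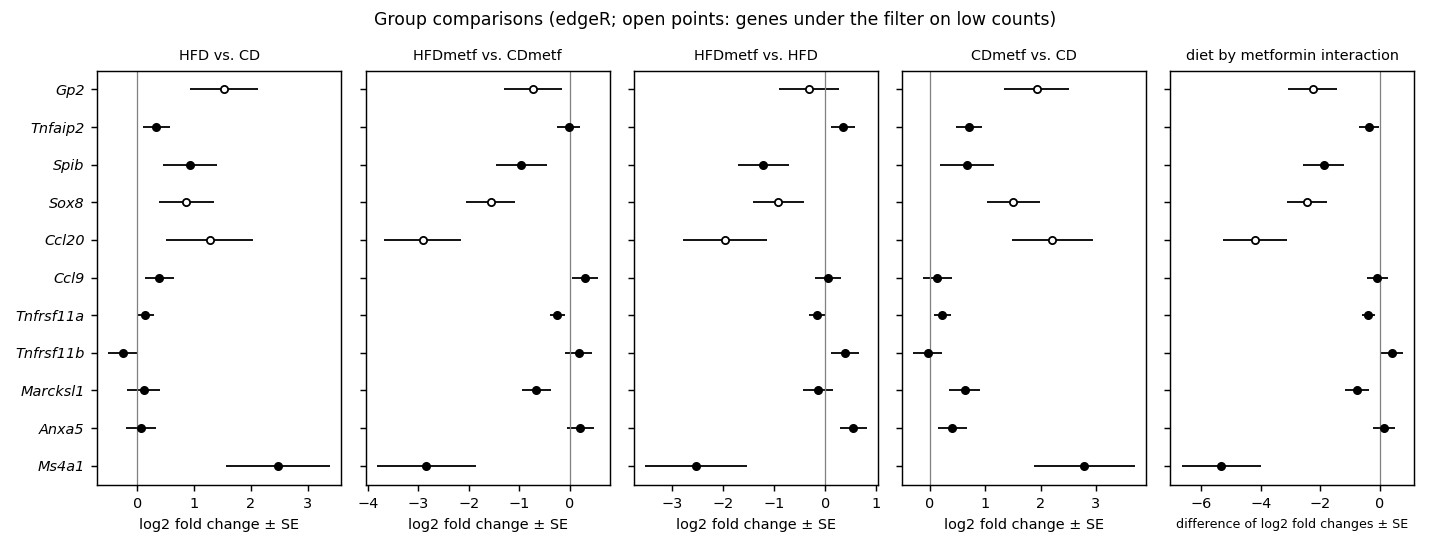
Log2 fold change with its standard error for the 10 genes and Ms4a1 in the 4 contrasts, and the diet by metformin interaction on the right, with open points for the 3 genes under the filter on low counts. Gp2, Spib, Sox8, Ccl20, Marcksl1 and Tnfrsf11a lie on the same side of 0 as Ms4a1 in each panel. In the interaction Ccl20 is at -4.19, Tnfrsf11a at -0.38 and Ms4a1 at -5.33.

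The second question was whether the M cell genes followed the follicle content of the piece. Over the 24 libraries, Spib had the highest correlation with Ms4a1 in log2 CPM (Pearson r = 0.762, permutation p = 4e-05, Spearman rho = 0.567, permutation p = 0.0044). Ccl20 came next (r = 0.701, permutation p = 1e-04, rho = 0.635, permutation p = 0.00122), and then Gp2 (r = 0.569, permutation p = 0.00462, rho = 0.515, permutation p = 0.0110). These p-values are two-sided, from 100000 resamples and not adjusted for the 10 relations computed. The resamples shuffled libraries without regard to group, sex or replicate number. After these terms were fitted out, r was 0.80 for Spib, 0.61 for Ccl20 and 0.55 for Gp2. Among the 14076 genes that passed the filter, 2.35% had an r above 0.5 with Ms4a1, and the median r was -0.01. Gp2 and Ccl20 did not pass the filter, so that this share is for genes with more reads than theirs.

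Without CDmetf F2 and HFD F1, the 2 libraries farthest from the Ms4a1 median, r was 0.604 for Spib, 0.598 for Ccl20 and 0.445 for Gp2. Within replicate numbers 1, 2 and 3, of 8 libraries each, r was 0.861, 0.843 and 0.424 for Spib, 0.750, 0.865 and 0.520 for Ccl20 and 0.753, 0.601 and 0.506 for Gp2. Within HFDmetf, where Ms4a1 spanned the narrow range above, r was 0.354 for Spib, -0.276 for Ccl20 and -0.293 for Gp2. Within CDmetf the same values were 0.931, 0.844 and 0.945. Ms4a1 had r = 0.097 with the log2 number of reads on genes, against 0.405 for Ccl20, 0.248 for Gp2 and -0.03 for Spib, and the part of depth in the Ccl20 relation was not tested. Leaving out HFD M2 and HFD F2 gave 0.751 for Spib, 0.677 for Ccl20 and 0.573 for Gp2.

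The other 7 genes followed Ms4a1 less closely. Marcksl1 had r = 0.394 (permutation p = 0.0552, rho = 0.290, permutation p = 0.168), and Sox8 had r = 0.372 (permutation p = 0.0717, rho = 0.352, permutation p = 0.0937), which fell to 0.139 without CDmetf F2 and HFD F1. Ccl9 ran the other way (r = -0.425, permutation p = 0.0391, rho = -0.310, permutation p = 0.140), a relation that was -0.245 without the same 2 libraries. With group, sex and replicate number fitted out, r was 0.44 for Marcksl1, 0.171 for Sox8 and -0.592 for Ccl9. Tnfaip2 (r = 0.271, permutation p = 0.199, rho = 0.146, permutation p = 0.494) and Tnfrsf11a (r = 0.228, permutation p = 0.283, rho = 0.244, permutation p = 0.248) had weakly positive values. Tnfrsf11b (r = -0.149, permutation p = 0.492, rho = -0.330, permutation p = 0.115) and Anxa5 (r = -0.135, permutation p = 0.528, rho = -0.193, permutation p = 0.365) had weakly negative ones.

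**Figure D3:**
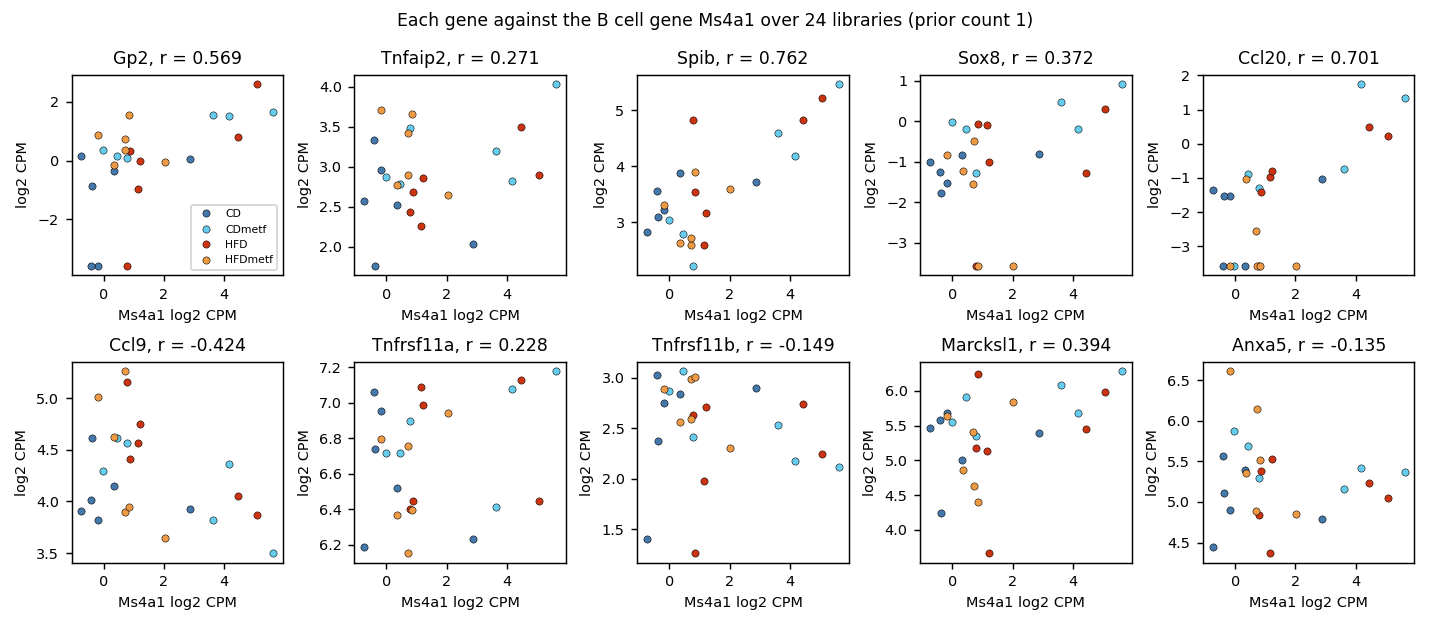
Log2 CPM of each of the 10 genes against that of Ms4a1 in the 24 libraries, coloured by group, with Pearson's r above each panel. Spib (r = 0.762), Ccl20 (0.701) and Gp2 (0.569) climb with Ms4a1, whereas Anxa5 (-0.135) and Tnfrsf11b (-0.149) do not.

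The slope on Ms4a1, fitted across all genes within group, sex and replicate number, gives the change in a gene per doubling of Ms4a1. Spib rose with Ms4a1 by 0.43 (SE 0.0755, adjusted p = 0.00224), the 1 gene called of 7 tested, against 1.24% of all genes with a positive and 0.0142% with a negative slope. The slope of Spib was between 0.38 and 0.47 and still called without each of the 24 libraries in turn. It was called under 10 of 11 alternatives, 1 of which is not reported here, the exception being Cxcl13, a chemokine of the follicular stroma, in place of Ms4a1 (0.23, adjusted p = 0.283).

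Ccl20 had a slope of 0.55 (SE 0.153, unadjusted p = 0.00185, adjusted p = 0.117) and Gp2 one of 0.39 (SE 0.115, unadjusted p = 0.00309, adjusted p = 0.172), neither of them called. Both were called with limma-voom, Ccl20 at 0.50 (adjusted p = 0.00763) and Gp2 at 0.44 (adjusted p = 0.0122). Gp2 was also called with DESeq2 (0.39, adjusted p = 0.0382), and in all under 3 of 10 alternatives, the third of which is not reported here. Ccl20 was called under 1 of 10 alternatives and in 1 of 24 fits that left out a library, that without CD M1 (0.59, adjusted p = 0.0485, against up to 0.434 in the others). Leaving out each library in turn gave slopes of Gp2 between 0.30 and 0.43, none of them called, with the highest adjusted p, 0.663, without HFD F1. Sox8 had a slope of 0.16 (SE 0.115, adjusted p = 0.807), Marcksl1 one of 0.13 (SE 0.0623, unadjusted p = 0.0452) and Ccl9 one of -0.15 (SE 0.0548, unadjusted p = 0.0112, adjusted p = 0.376). Tnfaip2 (0.04), Tnfrsf11a (0.02), Tnfrsf11b (-0.009) and Anxa5 (-0.06) had unadjusted p-values between 0.358 and 0.889.

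**Figure D4:**
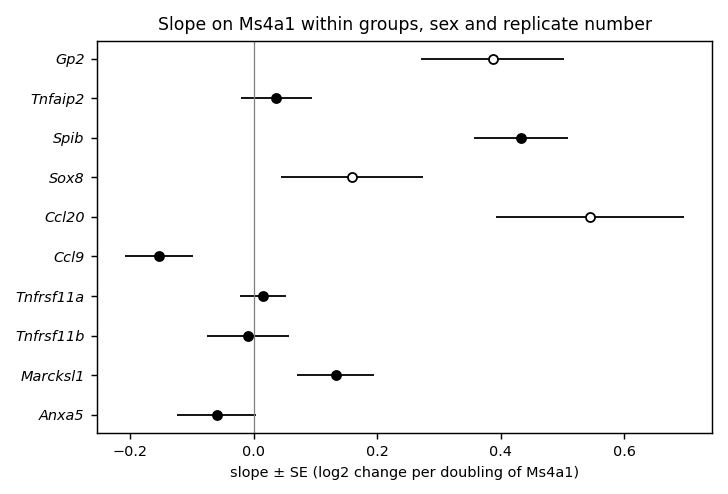
Slope of each gene on the log2 CPM of Ms4a1 with its standard error, fitted within group, sex and replicate number, with open points for the 3 genes under the filter on low counts. Ccl20 (0.55), Spib (0.43) and Gp2 (0.39) lie well to the right of 0, and Ccl9 (-0.15) lies to the left.

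With Ms4a1 as a further term in the group comparisons, the differences of Spib changed sign, other than HFDmetf vs. HFD, which shrank. That of CDmetf vs. CD was nearly as large as before, with the opposite sign. HFD vs. CD went from 0.93 to -0.10 (SE 0.352), HFDmetf vs. CDmetf from -0.96 to 0.14 (SE 0.362), HFDmetf vs. HFD from -1.22 to -0.33 (SE 0.345), CDmetf vs. CD from 0.67 to -0.57 (SE 0.371) and the interaction from -1.89 to 0.24 (SE 0.561). For Ccl20 the interaction went from -4.19 to -1.30 (SE 1.20), and HFD vs. CD from 1.28 to 0.02 (SE 0.499). For Gp2 the interaction went from -2.25 to -0.36 (SE 0.865) and CDmetf vs. CD from 1.93 to 0.90 (SE 0.576). Sox8 moved less, with an interaction of -1.68 (SE 0.852), HFDmetf vs. CDmetf at -1.15 (SE 0.552) and CDmetf vs. CD at 1.10 (SE 0.551). Since the level of Ms4a1 was not the same in the groups, this term and the groups are not independent.

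The same slope was read for other cell types that could bring these transcripts. All 10 follicular B cell genes other than Ms4a1 were called with a positive slope (median 0.93), as were 2 of 4 tested T cell genes, from the list led by Cd3e, and 2 of 4 tested genes of follicular stroma and lymphoid endothelium, from the list led by Cxcl13, of which Ccl21a was at 0 in all libraries. Of 6 germinal centre B cell genes only 3 passed the filter, and none of them was called, so that this list says little about germinal centres. No gene was called of 5 tested plasmacytoid dendritic cell genes, 8 macrophage genes, 8 epithelial genes and 7 enterocyte genes. The same held for 5 smooth muscle genes, 6 fibroblast genes and 6 acinar genes, although 4 of the fibroblast genes had a negative slope with an unadjusted p under 0.05. Spib had r = 0.76 with the T cell gene Cd3e and r = -0.075 with Siglech of plasmacytoid dendritic cells. The follicular B cell genes used here also mark cells that express Spib, and the level of Spib in B cells and in M cells cannot be told apart in these libraries.

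The 10 genes did not vary as 1 group. Of their 45 pairs, 2 had r above 0.5 over the 24 libraries, Tnfaip2 with Anxa5 and Sox8 with Ccl20 (both 0.55), 3 had r below -0.4, and the median was 0.15. Spib and Gp2, both high in the libraries rich in Ms4a1, had r = 0.24 with each other. Anxa5 had r = 0.77 with the macrophage gene Adgre1 and 0.74 with the fibroblast gene Col1a1. Ccl9 had r = 0.66 with Adgre1, Tnfrsf11b r = 0.69 with the smooth muscle gene Myh11 and -0.58 with the enterocyte gene Fabp2, and Marcksl1 r = 0.52 with Epcam. Ccl20 had r = -0.60 with Col1a1. These are descriptions over 24 libraries that share their scaling and tissue composition.

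**Figure D5:**
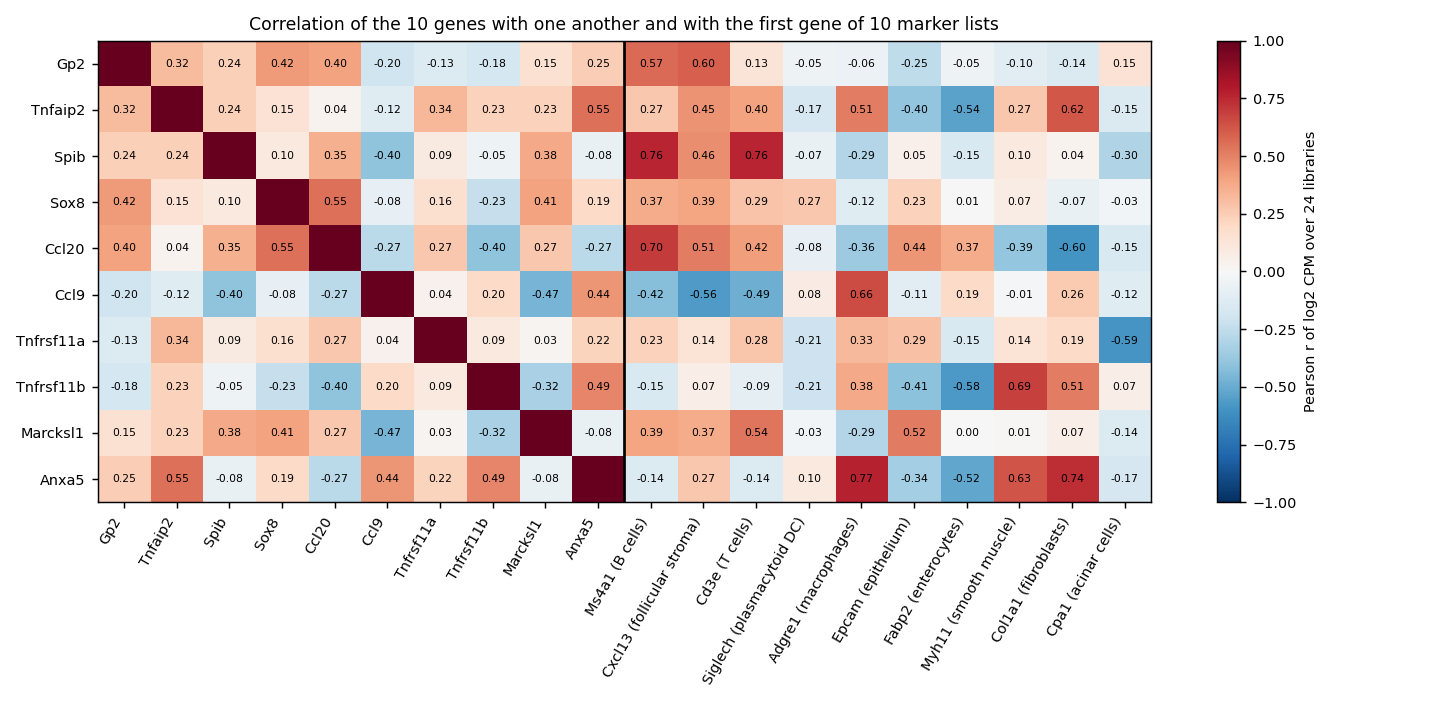
Pearson r of log2 CPM over the 24 libraries for the 10 genes with one another (left of the line) and with the first gene of 10 lists of cell type markers (right of it). Spib, Gp2 and Ccl20 are red with Ms4a1, while Anxa5 is red with Adgre1 (0.77), Col1a1 (0.74) and Myh11 (0.63).

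The genes most like each of the 7 filtered genes, by Pearson r over the 24 libraries, differed in the same way. Closest to Spib were Ptprc (r = 0.90), which encodes the leukocyte antigen CD45, Tspan32 (0.88) and Ighm (0.87), the heavy chain of IgM. Closest to Tnfaip2 were Sirpa (0.84), Lyz2 (0.83), the lysozyme of macrophages, and Unc93b1 (0.83). Closest to Anxa5 were Lix1l (0.88), C1s1 (0.87) and Anxa6 (0.87), and closest to Tnfrsf11b were Foxf1 (0.85), a factor of gut mesenchyme, Penk (0.84) and Slc5a7 (0.82), the choline transporter of cholinergic neurons. Tnfrsf11a was closest to Lypd8 (0.84), a protein of the enterocyte surface, Ang (0.83) and Bid (0.83). Marcksl1 was closest to Dnmbp (0.83), Asap1 (0.81) and Nucb1 (0.80), and Ccl9 to Gm11451 (0.77), Inhba (0.77) and Ggh (0.76).

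Other genes of the M cell and dome programme were read as lists. Of 10 further M cell and follicle-associated epithelium genes, 8 were tested and 0 were called in any contrast at an FDR of 0.05. Clu, which encodes the secreted chaperone clusterin, ranged from 13.3 to 200 CPM. It was at 1.45 (SE 0.474) in HFD vs. CD, -1.34 (SE 0.473) in HFDmetf vs. CDmetf, -1.25 (SE 0.476) in HFDmetf vs. HFD, 1.55 (SE 0.471) in CDmetf vs. CD and -2.80 (SE 0.667, unadjusted p = 3.9e-04, adjusted p = 0.547) in the interaction. Clu was the 1 gene of the 8 called for its slope on Ms4a1 (0.42, SE 0.0681, adjusted p = 0.00111). Which cells of the follicle or its epithelium brought Clu was not tested, so that its slope cannot be read as a level of M cells. Cxcl16, a membrane-bound chemokine of the dome epithelium, was at 0.44 (SE 0.196) in CDmetf vs. CD and at -0.54 (SE 0.199) in HFDmetf vs. CDmetf. Prnp, the prion protein gene, was at 0.79 (SE 0.302) in HFDmetf vs. HFD.

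Of 13 genes of RANK and lymphotoxin signalling, 11 were tested, 0 were called in any contrast, and Tnfsf11, which encodes RANKL, was too low to be tested (0 to 2.12 CPM, median 0.567). Ltb, which encodes lymphotoxin beta of lymphocytes, was at 1.53 (SE 0.679) in HFD vs. CD, -1.53 (SE 0.717) in HFDmetf vs. HFD and -2.94 (SE 0.976, adjusted p = 0.709) in the interaction. It was the 1 gene of the 11 called for its slope on Ms4a1 (0.61, SE 0.104, adjusted p = 0.00177). Its receptor gene Ltbr was at 0.31 (SE 0.148) in HFD vs. CD, and Nfkb2, of the noncanonical NF-kappa B pathway, at -0.50 (SE 0.183) in HFDmetf vs. CDmetf. Of the receptors of the 2 chemokines, Ccr6, the receptor of CCL20, was at 2.03 (SE 0.808) in CDmetf vs. CD and -3.81 (SE 1.17, adjusted p = 0.709) in the interaction, and was called for its slope on Ms4a1 (0.76, SE 0.129, adjusted p = 0.00177). Ccr1, the receptor of CCL9, was not called.

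Sex and replicate number were read last. In males vs. females, by the sex labels, which 2 HFD libraries go against, none of the 10 genes was called, against 0.0071% of all genes, and Ccl20 had the lowest unadjusted p (-1.56, SE 0.581, unadjusted p = 0.0139, adjusted p = 0.593). Without HFD M2 and HFD F2, 8 of all genes were called and again none of the 7. Over the 3 replicate numbers, 16.6% of all genes were called, and so was 1 of the 7 tested genes, Tnfaip2 (adjusted p = 0.0447), which had medians of 7.39, 10.4 and 6.49 CPM in numbers 1, 2 and 3. Tnfrsf11a was just past the threshold (adjusted p = 0.0504), with medians of 86.1, 129 and 106 CPM. The number called moved between 0 and 2 with the settings. Read depth also differed by replicate number. It was 2977391 to 40606442 reads on genes in number 1, 1829690 to 3466430 in number 2 and 2296520 to 40384234 in number 3. Tnfaip2 had r = -0.394 with the log2 number of reads on genes and Tnfrsf11a r = -0.2125. The part of depth in these calls was not tested.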

How the data were processed

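RNA was sequenced in 24 ileum libraries from as many mice. The authors deposited raw read counts per gene. By the study's methods, Trimmomatic 0.39 was used first, with a window of 5, a quality of 25 and reads kept from 30 bp. STAR 2.5.3a then aligned the reads to GRCm38 and gave the counts per gene. The annotation release and the strand setting are not given in the sources used here, so that overlapping and antisense genes are uncertain. No column of other samples was found. Group, sex and replicate number came from the sample labels.

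Counts were scaled by TMM to CPM, and RPKM used exonic lengths of GENCODE vM21. Tests were run in edgeR 4.0.16 (R 4.3.3) after filterByExpr. The quasi-likelihood fit held the 24 libraries, with terms for group, sex label and replicate number, and left 17 residual degrees of freedom. Calls were made at a Benjamini-Hochberg adjusted p under 0.05, taken over every gene tested. The slope model added the log2 CPM of Ms4a1 (prior count 1). The fits were also run on simulated data, but the rates of recovery are not given here, so that the run bears on none of the results above. The settings tried beside the fit as reported were DESeq2 1.42.0, limma-voom (limma 3.58.1), RLE, other filters, other covariates or predictors, no replicate block and fewer libraries. Adding Gp2, Sox8 and Ccl20 to the fit was chosen after seeing the data. Promoter windows came from RefSeq.

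The text names all 10 genes and Ms4a1, the 3 genes of the M cell, RANK and chemokine receptor lists with the smallest p in each contrast, the 3 genes most like each of the 7 filtered genes, and the first gene of each marker list. The 10 genes and the lists were chosen with earlier results of these data known. Intervals are not given for single libraries, and the floor of 3 reads covers counting error only. The result of 1 other predictor in place of Ms4a1 is not reported here.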

Additional observations from a re-analysis of the deposited data

Results flagged for a closer look

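One value stood apart from its group. Ms4a1 was at 7.22 CPM in CD F1, while the remaining 5 CD libraries lay between 0.513 and 1.18 CPM. In log2 CPM (prior count 1), its gap to the nearest of them was 0.700 of the range of the 6, above Dixon's critical value for 6 samples. In all, 44 groups (11 genes in 4 groups) were checked, and chance alone flags about 1 group in 20. In the same library Gp2 was at 0.963 CPM, Spib at 13.1 CPM and Ccl20 at 0.401 CPM. Without CD F1, the difference of Ms4a1 was 3.50 in HFD vs. CD (2.48 with it) and 3.71 in CDmetf vs. CD (2.79 with it).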

How the results depend on the processing

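None of the 10 genes was called in the 4 contrasts or the interaction under any alternative that gave it an adjusted p. In HFDmetf vs. CDmetf, DESeq2 gave no adjusted p for 9 of the 10, all but Tnfrsf11a. The lowest adjusted p was 0.206, for the interaction of Ccl20 without CDmetf F1. With DESeq2, 13, 3, 4 and 4 of all genes were called in HFD vs. CD, HFDmetf vs. CDmetf, CDmetf vs. CD and the interaction, and 0 in HFDmetf vs. HFD, against 0 in each with edgeR. In edgeR, genes with an unadjusted p under 0.05 numbered 849 in the interaction, 724 in CDmetf vs. CD, 1108 in HFDmetf vs. CDmetf, 652 in HFD vs. CD and 931 in HFDmetf vs. HFD. Without CD F1, 1 gene was called in HFD vs. CD. For the slope on Ms4a1, 177 genes were called in all, 47 among genes with at least 10 counts in every library (fewer genes tested), 105 without CDmetf F2 and 111 without HFD F1. The low depth limits Gp2, Sox8 and Ccl20 most.

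With no replicate block, the number of these genes called was 1 for the slope on Ms4a1 (Spib 0.42, adjusted p = 0.00135) and 0 in each contrast, so no call changed. Deviations of libraries with the same number had a mean r of 0.13 over 72 pairs of different groups (lowest -0.46). Over 144 pairs with different numbers the mean r was -0.06. In the test for replicate number, 16.6% of all genes were called, so that the number does go with differences between libraries. Read depth differed between the numbers as well, and its part was not tested. The labels do not say that a number marks a shared block.

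Some small differences changed sign, and the cause was not tested. With limma-voom, Tnfrsf11b was at 0.006 in HFD vs. CD and 0.035 in CDmetf vs. CD, Tnfaip2 at 0.017 in HFDmetf vs. CDmetf and the interaction of Anxa5 at -0.02. With genes of at least 1 count in any library, Tnfrsf11b was at 0.003 in CDmetf vs. CD, and with at least 10 counts in every library Tnfaip2 was at 0.004 in HFDmetf vs. CDmetf. Without HFD M2 and HFD F2, Ccl9 was at -0.008 in HFDmetf vs. HFD and the interaction of Anxa5 at -0.072. Among the 12 libraries compared alone, Ccl9 was at -0.006 in HFDmetf vs. HFD.

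With Ms4a1 as a covariate, Spib was at -0.10, 0.14 and -0.57 in HFD vs. CD, HFDmetf vs. CDmetf and CDmetf vs. CD, with an interaction of 0.24. Marcksl1 was at -0.18 in HFD vs. CD and 0.066 in HFDmetf vs. HFD, Gp2 at 0.22 in HFDmetf vs. CDmetf and 0.54 in HFDmetf vs. HFD, Tnfaip2 at 0.056 in HFDmetf vs. CDmetf, Ccl9 at -0.18 in HFDmetf vs. HFD and the interaction of Anxa5 at -0.093. With Epcam as a covariate, Tnfrsf11b was at -0.066 in HFDmetf vs. CDmetf and 0.029 in CDmetf vs. CD, Anxa5 at -0.036 in HFDmetf vs. CDmetf with an interaction of -0.12, and in HFDmetf vs. HFD Ccl9 was at -0.036 and Marcksl1 at 0.21. With Cxcl13 in place of Ms4a1, the slopes of Tnfrsf11b and Anxa5 were 0.027 and 0.06, and 0 genes of the 7 were called.

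For the replicate number, 2 of these genes were called with limma-voom, DESeq2, at least 10 counts in every library or Epcam as a covariate, and 0 with RLE, at least 1 count in any library or Ms4a1 as a covariate, and leaving out single libraries gave 0 to 2. Over all genes, 2333 were called in the fit as reported, 4501 with limma-voom, 4109 with DESeq2, 2550 with at least 10 counts in every library and 2628 with Epcam as a covariate. Among the settings that called 0 of these genes, the counts over all genes were 2379 with RLE, 2332 with at least 1 count in any library and 1955 with Ms4a1 as a covariate. RLE thus had more calls over all genes than the fit as reported. Males vs. females gave 1 gene in all, against 19 with DESeq2, 15 with at least 1 count in any library and 8 without HFD M2 and HFD F2. Leaving out single libraries, Anxa5 ranged from -0.11 to 0.22 in HFD vs. CD, from -0.11 to 0.36 in HFDmetf vs. CDmetf and from -0.21 to 0.30 in the interaction. Tnfrsf11b ranged from -0.22 to 0.12 in CDmetf vs. CD and from -0.049 to 0.029 for the slope, and Tnfrsf11a from -0.004 to 0.039 for the slope. Ccl9 ranged from -0.21 to 0.23 in HFDmetf vs. HFD, from -0.034 to 0.24 in CDmetf vs. CD and from -0.34 to 0.10 in the interaction. Tnfaip2 ranged from -0.17 to 0.091 in HFDmetf vs. CDmetf, Marcksl1 from -0.024 to 0.31 in HFD vs. CD and Gp2 from -0.54 to 0.46 in HFDmetf vs. HFD, where it was positive without HFD F1 and without HFDmetf F1.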
